A study of Mus musculus with 9 samples.

Results

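The lens of the eye is built from fiber cells packed with crystallins, a few families of soluble proteins. This account follows 10 such genes: 9 crystallins (Cryaa, Cryab, Cryba1, Cryba2, Cryba4, Crybb1, Crybb2, Crybb3 and Crygs) and Lim2, which encodes a lens fiber membrane protein. The 10 genes were chosen by symbol with the array intensities of all 3 groups already known, so their own differences are given as a description. No p-values are given for them, and counts of members past the test stand beside the share over all genes and support nothing. The platform annotation gave them 12 probe sets, 1 each except for Cryab, which had 3. They were 10 of the 18193 genes on the array that had a probe set of their own.

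Alpha crystallins are small heat shock proteins that hold other proteins in solution. Beta and gamma crystallins share another fold and fill the fiber cell cytoplasm. In the lens their genes are switched on by transcription factors that include Pax6, Sox2, Prox1 and Maf, and several crystallins are also expressed at lower levels in the neural retina.

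RNA was measured on 9 Affymetrix arrays in 3 groups of 3 biological replicates. The first group, DKK1-treated ESC-RPCs, was made of retinal progenitor cells derived from the mouse embryonic stem cell line 46C, a gene-targeted derivative of E14Tg2a.IV, and given recombinant DKK1, a secreted Wnt antagonist, at 1 ng/ml for 1 day. The second, untreated ESC-RPCs, came from the same line without DKK1. Both ESC-RPC groups went through 3 days as embryoid bodies with the Nodal pathway inhibitor SB431542, a sort for Sox1-positive cells at day 7 (35.8% of cells), and culture with 10 µM DAPT, which blocks Notch processing, and 20 ng/ml bFGF. The third group, primary RPCs, was cultured from the neural retina of newborn C57 mice (postnatal day 1), with no statement in the labels on pooling of animals. All ESC-RPC arrays therefore stem from 1 parental line, and the origin and the culture of the cells differ together between ESC-RPCs and primary RPCs. The series treats untreated ESC-RPCs as an early stage, DKK1-treated ESC-RPCs as a later stage and primary RPCs as the negative control.

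Values are the deposited MAS5 intensities, in linear units on arrays scaled to a common trimmed mean. No detection calls were used. As a line for values near background, each array's own 40th percentile served, which lay between 44.7 and 52.9. A gene was tested if it exceeded that line on at least 3 of the 9 arrays, which 13320 genes did. Of the 10 genes, 7 were tested, and Cryba4, Crybb1 and Crygs were not. A gene tested only because 1 group was bright had to differ between groups, so counts over the 7 support nothing by themselves. Where all 3 arrays of a group lay under the line, a fold is given as "at least", computed against the line. In whole-culture RNA, fewer cells that express a gene and less of its RNA per cell cannot be told apart.

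The labels name all cells retinal progenitors. Of 10 listed retinal progenitor markers, 9 were on the array, and all 9 passed the test between untreated ESC-RPCs and primary RPCs, 7 of them lower, where limma called 53.0% of all tested genes and 26.9% as lower. Rax, an eye field homeobox gene, measured 30.9, 1.66 and 4.88 in DKK1-treated ESC-RPCs and 7.47, 50.2 and 27.0 in untreated ESC-RPCs, against 3185, 3635 and 4996 in primary RPCs, and exceeded the background line on 1 of the 6 ESC-RPC arrays. Six6 exceeded the line on 2 arrays of each ESC-RPC group. Pax6, Six3, Lhx2, Sox2, Hes1, Fgf15 and Ccnd1 exceeded it on all 6 ESC-RPC arrays. Pax6 averaged 1255 in DKK1-treated and 1323 in untreated ESC-RPCs, against 10035 in primary RPCs.

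The promoters of 4 members are printed first, chosen by the intensities of their genes. Cryaa lay under the background line on all ESC-RPC arrays and above it on all primary RPC arrays, and Cryba4, Crybb2 and Lim2 were the members lower in DKK1-treated than in untreated ESC-RPCs on all arrays. Each window holds 250 bases before and 50 after the transcription start, 5′ to 3′, from RefSeq on GRCm38.p6. Capitals mark matches, on either strand, to TGCTGA, a core sequence bound by Maf proteins (TCAGCA on the other strand), or, in Cryaa alone, to CTTTGA, the core bound by TCF and LEF factors of the Wnt pathway (TCAAAG on the other strand). The windows lay at chr17:31677681-31677980, plus strand (Cryaa), chr5:112252469-112252768, minus strand (Cryba4), chr5:113070068-113070367, minus strand (Crybb2) and chr7:43429849-43430148, plus strand (Lim2).
Cryaa: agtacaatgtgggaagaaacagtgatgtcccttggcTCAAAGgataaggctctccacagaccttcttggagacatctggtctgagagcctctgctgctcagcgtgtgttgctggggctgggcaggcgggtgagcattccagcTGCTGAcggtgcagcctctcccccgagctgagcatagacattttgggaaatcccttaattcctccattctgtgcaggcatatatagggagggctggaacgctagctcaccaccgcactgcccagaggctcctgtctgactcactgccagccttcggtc
Cryba4: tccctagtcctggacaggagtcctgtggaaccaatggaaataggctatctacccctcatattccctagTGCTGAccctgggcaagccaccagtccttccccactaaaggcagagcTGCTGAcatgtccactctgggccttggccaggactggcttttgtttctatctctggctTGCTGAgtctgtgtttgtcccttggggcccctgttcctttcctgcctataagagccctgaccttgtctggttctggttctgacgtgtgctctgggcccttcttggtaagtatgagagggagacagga
Crybb2: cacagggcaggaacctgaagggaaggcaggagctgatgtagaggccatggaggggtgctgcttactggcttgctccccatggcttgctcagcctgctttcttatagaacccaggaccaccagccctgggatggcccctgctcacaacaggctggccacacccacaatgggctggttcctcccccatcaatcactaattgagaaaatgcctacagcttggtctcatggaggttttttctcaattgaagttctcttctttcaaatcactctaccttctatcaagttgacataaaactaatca
Lim2: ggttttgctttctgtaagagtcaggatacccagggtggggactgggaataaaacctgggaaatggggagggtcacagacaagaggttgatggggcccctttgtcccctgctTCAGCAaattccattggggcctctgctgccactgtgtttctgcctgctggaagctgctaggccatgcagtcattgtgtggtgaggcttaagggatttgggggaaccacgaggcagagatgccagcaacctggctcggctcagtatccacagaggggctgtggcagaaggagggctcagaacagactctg

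Of the 10 genes, 9 had a promoter in that table (not Cryab). The Maf core TGCTGA occurred in 8 of these 9 windows, all but that of Crybb2, and in 19.5% of all 32851 windows of the same length. Cryba4 held 3 forward copies, starting 182, 135 and 77 bases before the transcription start, and Cryaa held 1, starting 108 bases before it. The TATA box sequence TATAAA occurred in 4 of the 9 windows (Cryba1, Cryba2, Crybb1 and Crygs) and in 13.6% of all windows. The TCF and LEF core CTTTGA occurred in 1 window (Cryaa) and in 16% of all. The heat shock element core GAANNTTC occurred in none of the 9 and in 7.86% of all. Both strands were searched for every motif, and no 2 matches in the member windows overlapped. These matches describe letters in a window and show no binding.

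The alpha crystallins were both brightest in primary RPCs. Cryaa, alpha A crystallin, which is largely restricted to the lens, measured 2.71, 3.49 and 27.4 in DKK1-treated ESC-RPCs and 2.28, 2.94 and 17.8 in untreated ESC-RPCs, against 417, 338 and 317 in primary RPCs. All 6 ESC-RPC arrays lay under their background line, and the groups did not overlap with primary RPCs. Cryaa was thus at least 7.54-fold lower in DKK1-treated ESC-RPCs and at least 7.61-fold lower in untreated ESC-RPCs than in primary RPCs. Cryab, alpha B crystallin, is also abundant in muscle, heart and glia. Its brightest probe set measured 119.8, 81.9 and 113 in DKK1-treated ESC-RPCs and 60.1, 70.9 and 107 in untreated ESC-RPCs, against 297, 287 and 296 in primary RPCs. All 9 values exceeded the line, with primary RPCs highest and the ESC-RPC groups overlapping each other. The log2 difference was -1.50 ± 0.24 (SE from limma) for DKK1-treated ESC-RPCs and -1.93 ± 0.24 for untreated ESC-RPCs relative to primary RPCs.

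The 3 probe sets of Cryab did not give the same picture. A second set measured 3.47, 2.34 and 5.18 in DKK1-treated ESC-RPCs and 3.44, 4.28 and 5.38 in untreated ESC-RPCs, against 102, 71.3 and 71.6 in primary RPCs. In this set the 3 primary arrays exceeded the line and the 6 ESC-RPC arrays did not, and the bound was at least 1.72-fold lower in untreated ESC-RPCs. The third set lay under the line on all 9 arrays, at 23.3 ± 3.78 in DKK1-treated ESC-RPCs, 23.7 ± 13.1 in untreated ESC-RPCs and 23.5 ± 4.96 in primary RPCs (SD, n = 3 each). With the 2 probe sets of Cryab that passed the filter averaged, the log2 difference to primary RPCs was -3.02 for DKK1-treated ESC-RPCs and -3.08 for untreated ESC-RPCs. Which transcripts the sets detect was not examined.

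**Figure D1:**
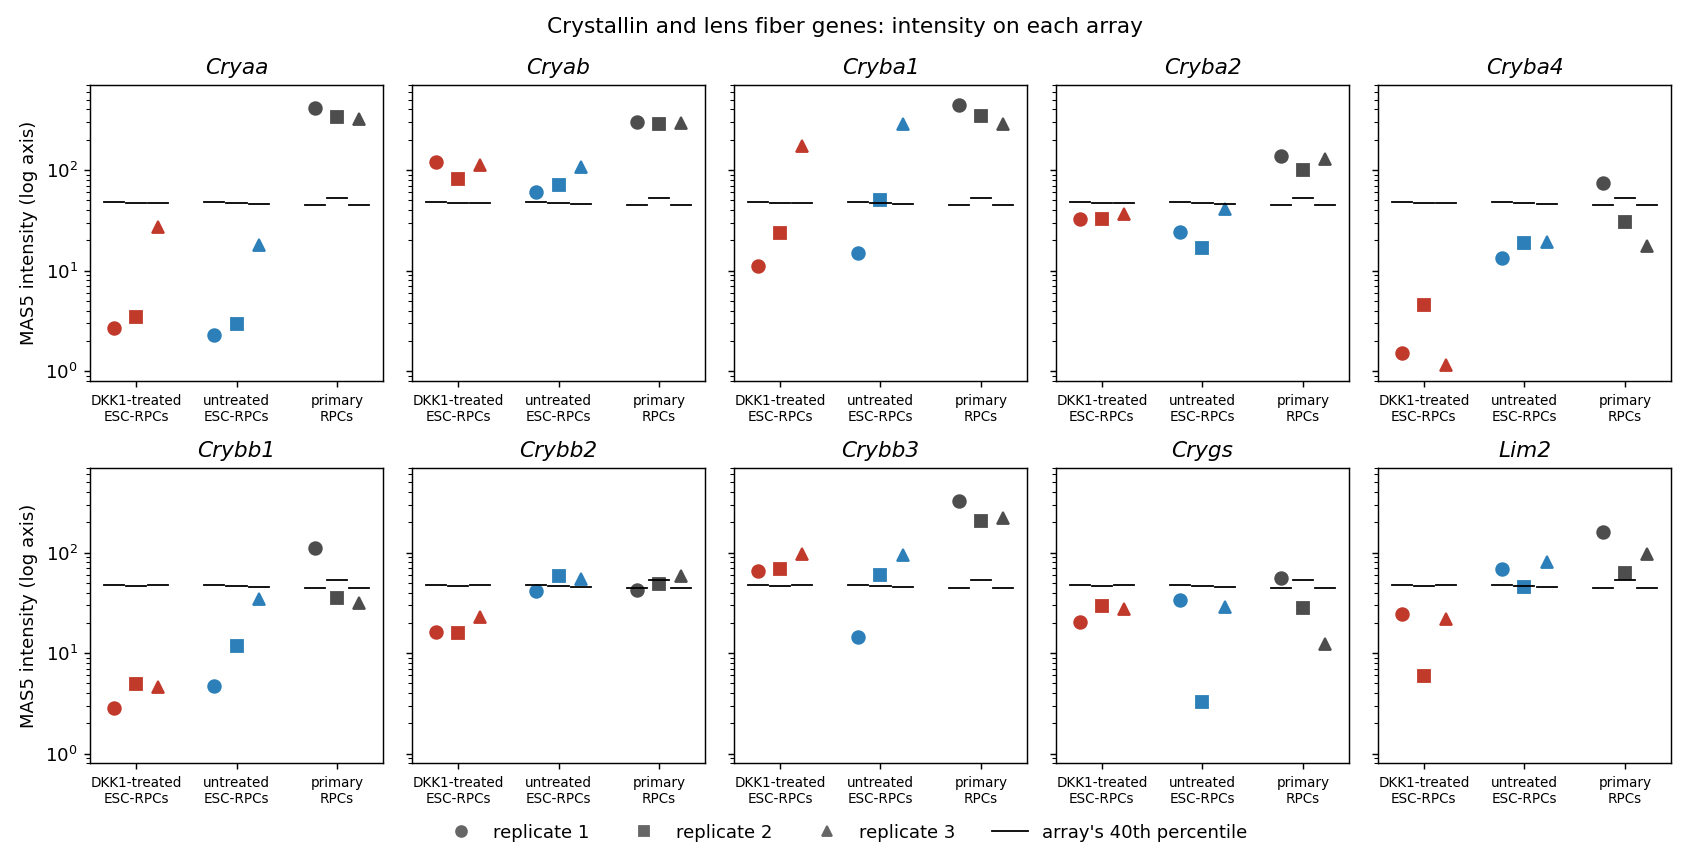
MAS5 intensity (log axis) of each of the 10 genes on each array, by group; symbols mark replicate numbers and short black lines the array's own 40th percentile. Cryaa, Cryab, Cryba2 and Crybb3 lie higher on all 3 primary RPC arrays than on all untreated ESC-RPC arrays, and Crybb2 and Lim2 lie under the line on all 3 arrays in DKK1-treated ESC-RPCs but not in the other groups.

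The acidic beta crystallins Cryba1, Cryba2 and Cryba4 pair with the basic ones in the lens. Cryba1, which encodes beta A3 and beta A1 crystallin, measured 11.0, 23.5 and 174 in DKK1-treated ESC-RPCs and 15.0, 50.6 and 285 in untreated ESC-RPCs, against 437, 344 and 285 in primary RPCs. Replicate 3 of each ESC-RPC group stood far above the other replicates, and in untreated ESC-RPCs it reached the primary range. The log2 difference of Cryba1 was -3.30 ± 1.08 for DKK1-treated and -2.54 ± 1.08 for untreated ESC-RPCs relative to primary RPCs. Without replicate 3 of untreated ESC-RPCs the difference of untreated ESC-RPCs to primary RPCs was -3.67, and without its replicate 1 it was -1.54. Cryba2 measured 32.7, 32.6 and 36.3 in DKK1-treated ESC-RPCs and 24.2, 16.7 and 41.4 in untreated ESC-RPCs, against 136, 99.1 and 127 in primary RPCs. All 6 ESC-RPC values lay under the line and all 3 primary values above it, so that Cryba2 was at least 2.54-fold lower in DKK1-treated and at least 2.57-fold lower in untreated ESC-RPCs.

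Cryba4 was dim in every group. It measured 1.53, 4.51 and 1.14 in DKK1-treated ESC-RPCs and 13.5, 18.9 and 19.2 in untreated ESC-RPCs, against 74.8, 30.5 and 17.6 in primary RPCs. Only primary RPC replicate 1 exceeded the line. The DKK1-treated values lay under all untreated values, yet both groups sat below background, at percentiles 1.84 to 10.5 and 19.4 to 25.3 of their arrays, so no fold is given between them.

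The basic beta crystallins did not share a pattern. Crybb1 measured 2.87, 4.94 and 4.63 in DKK1-treated ESC-RPCs and 4.67, 11.8 and 34.7 in untreated ESC-RPCs, against 110.0, 35.5 and 31.4 in primary RPCs, and here too primary RPC replicate 1 alone exceeded the line. Crybb3 measured 64.8, 69.1 and 96.9 in DKK1-treated ESC-RPCs and 14.4, 59.6 and 94.3 in untreated ESC-RPCs, against 328, 204 and 219 in primary RPCs. Its ESC-RPC values lay below every primary value, with a log2 difference of -1.69 ± 0.56 for DKK1-treated and -2.50 ± 0.56 for untreated ESC-RPCs. Crybb2, which besides the lens is known from retina, brain and testis, measured 16.3, 15.8 and 23.1 in DKK1-treated ESC-RPCs and 41.4, 57.9 and 55.2 in untreated ESC-RPCs, against 42.8, 48.9 and 58.5 in primary RPCs. Untreated ESC-RPCs and primary RPCs overlapped around the background line (log2 difference 0.04 ± 0.36), and DKK1-treated ESC-RPCs lay under both. The bound on that last gap was small: Crybb2 was at least 1.08-fold lower in DKK1-treated than in untreated ESC-RPCs and at least 1.05-fold lower than in primary RPCs. Crybb2 exceeded the line on only 2 untreated arrays and 1 primary array, so both bounds rest in part on values near background.

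Crygs, gamma S crystallin of the lens cortex, measured 20.5, 29.5 and 27.3 in DKK1-treated ESC-RPCs and 34.0, 3.25 and 28.7 in untreated ESC-RPCs, against 55.2, 28.4 and 12.4 in primary RPCs. It exceeded the line on 1 of 9 arrays, primary RPC replicate 1, and the groups overlapped. Lim2, a fiber cell membrane protein, measured 24.5, 5.86 and 21.9 in DKK1-treated ESC-RPCs and 68.4, 45.3 and 80.6 in untreated ESC-RPCs, against 159, 63.3 and 96.3 in primary RPCs. All DKK1-treated values lay under the line and under every untreated and primary value, while untreated ESC-RPCs and primary RPCs overlapped. Lim2 was at least 1.34-fold lower in DKK1-treated than in untreated ESC-RPCs, where 2 arrays exceeded the line, and at least 2.10-fold lower than in primary RPCs, where 3 did.

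Within ESC-RPCs, then, DKK1 went with lower intensities of some members and higher ones of others, most of them near background. DKK1-treated values lay below all untreated values for 3 of 10 genes (Cryba4, Crybb2 and Lim2), against 6.37% of all genes on the array. In the limma fit of 9 arrays, 0 of the 7 tested members were called, as were 0 (0.0%) of 13320 genes. Over all genes, 308 of 13320 had an unadjusted p under 0.05. With the replicate number as a block on the 6 ESC-RPC arrays, 65 genes (0.488%) were called and again 0 of the 7 members. The log2 difference was -1.49 ± 0.36 for Crybb2 and -2.10 ± 0.57 for Lim2, and with every array floored at its line it was -0.18 and -0.44.

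Arrays of the same replicate number in the ESC-RPC groups deviated together, so the members were also read pair by pair. The DKK1-treated array was the lower one in all 3 pairs for 5 genes (Cryba1, Cryba4, Crybb1, Crybb2 and Lim2), a pattern that 17.5% of all genes showed. It was the higher one in all 3 pairs for 3 genes (Cryaa, Cryab and Crybb3), against 17.0% of all genes. Cryba2 and Crygs went both ways.

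**Figure D2:**
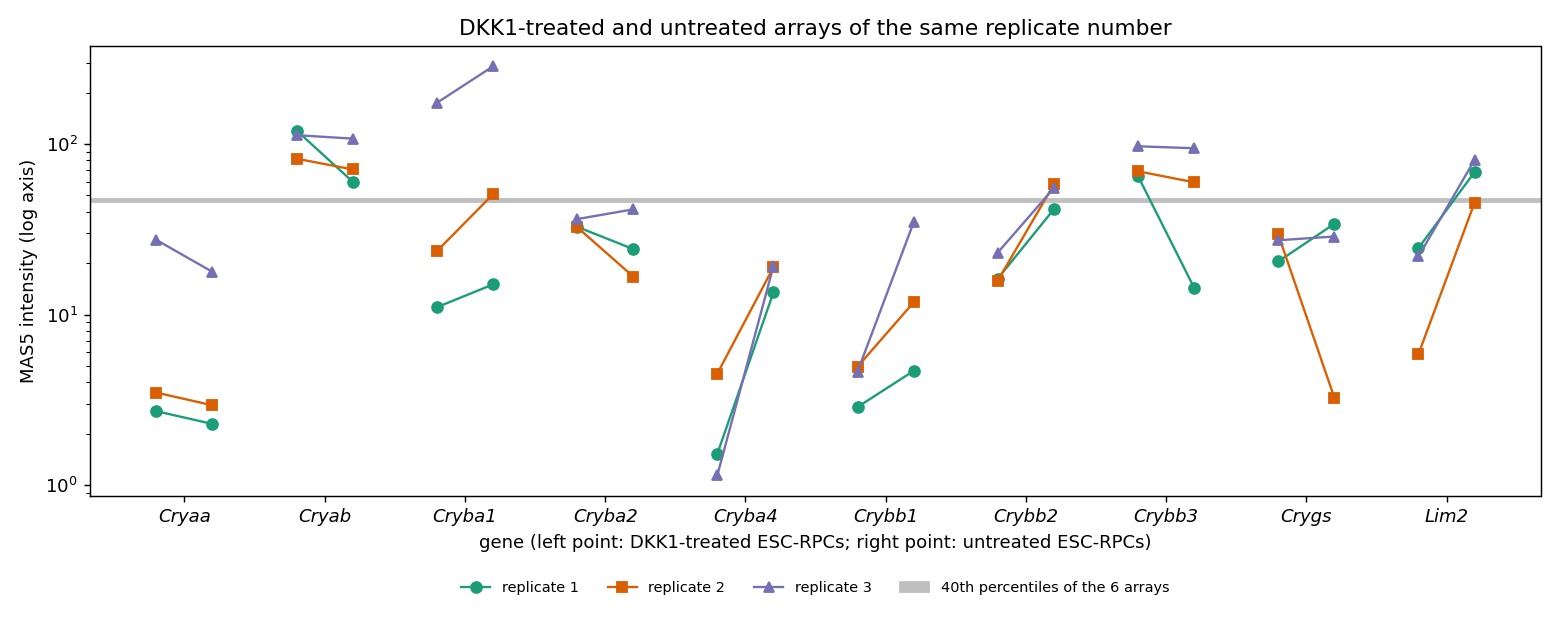
MAS5 intensity (log axis) of each gene in DKK1-treated (left point) and untreated ESC-RPCs (right point), with arrays of the same replicate number joined; the grey band spans the 40th percentiles of the 6 arrays. The lines of Cryba4, Crybb1, Crybb2 and Lim2 climb towards the untreated side in all 3 pairs, those of Cryba4 and Crybb1 wholly under the band, and Cryaa and Cryba1 stand highest in replicate 3 on both sides.

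Some of the members lie side by side. In the RefSeq annotation of GRCm38.p6, Cryba4 and Crybb1 overlap on chromosome 5, and both were lower in every pair with DKK1. All ESC-RPC values of both genes lay under the background line, and with the floor both log2 differences were 0.01. Crybb2 and Crybb3 are neighbouring protein-coding genes on the same chromosome, and with DKK1 Crybb2 was lower and Crybb3 higher in every pair. Of all genes on the array, 17.5% were lower and 17.0% higher in every pair. Cryab on chromosome 9 overlaps Hspb2, another small heat shock protein gene, which measured 90.1, 91.7 and 36.7 in DKK1-treated ESC-RPCs and 43.3, 80.7 and 46.7 in untreated ESC-RPCs, against 48.8, 36.5 and 44.5 in primary RPCs. Hspb2 did not pass the test between untreated ESC-RPCs and primary RPCs (log2 difference 0.35 ± 0.41, adjusted p = 0.50, limma), and its groups overlapped where those of Cryab did not.

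Against primary RPCs, the means of 9 of 10 genes in untreated ESC-RPCs and of all 10 in DKK1-treated ESC-RPCs were lower on the log2 scale. Untreated ESC-RPCs lay below all primary arrays for 4 of 10 genes (Cryaa, Cryab, Cryba2 and Crybb3), against 24.7% of all genes. DKK1-treated ESC-RPCs did so for 9 of 10, all but Crygs, against 24.3%. Of the 7 tested members, limma called 4 in untreated ESC-RPCs, all lower and the same 4 genes, where it called 53.0% of all tested genes and 26.9% of all tested genes as lower. It called all 7 lower in DKK1-treated ESC-RPCs, where it called 52.8% of all tested genes and 26.8% as lower. The 2 comparisons share the primary arrays, and most tested members passed the filter through those arrays, so nothing is read from these counts. In DKK1-treated ESC-RPCs the calls of Cryba1 and Crybb3 were lost when replicate 1 or 2 of DKK1-treated ESC-RPCs or replicate 1 of primary RPCs was left out, and that of Crybb3 also without primary RPC replicate 3. The call of Cryba1 was also lost without the intensity trend, and that of Crybb2 with the floor, where its log2 difference was -0.14. In untreated ESC-RPCs Cryba1 joined the calls without replicate 3 of either ESC-RPC group, with the floor, with only the 2 groups fitted and with a replicate block on 9 arrays.

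**Figure D3:**
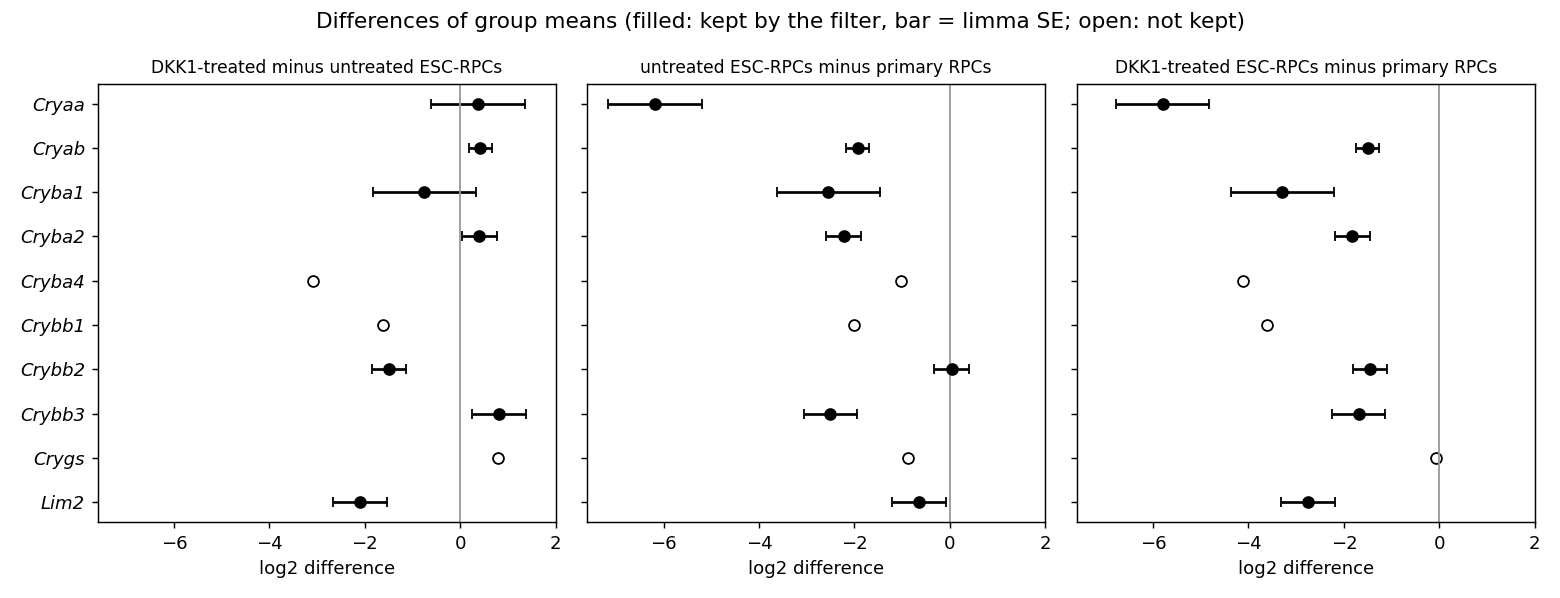
Log2 difference of group means for each gene in the 3 comparisons; filled points are genes tested by limma with their SE as bars, and open points are the 3 genes not tested. Cryaa is plotted at -6.17 for untreated ESC-RPCs relative to primary RPCs, a value that rests on intensities under the background line and is -2.93 with the floor, and Lim2 and Crybb2 lie left of 0 for DKK1-treated relative to untreated ESC-RPCs.

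Single arrays moved with several members. Replicate 1 was the brightest primary array for 9 of 10 members, all but Crybb2, where 29.2% of all genes were brightest on it. The intensities of the 10 genes summed to 2057, 1479 and 1460.1 on the 3 primary arrays. Without primary RPC replicate 1, the log2 difference of untreated ESC-RPCs to primary RPCs was -1.43 in place of -2.00 for Crybb1, whose untreated values all lay under the line, and -0.31 in place of -0.65 for Lim2.

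In ESC-RPCs it was replicate 3 that stood out. It was the brightest array of both ESC-RPC groups for 4 of 10 members (Cryaa, Cryba1, Cryba2 and Crybb3), against 18.8% of all genes. Cryaa and Cryba2 lay under the line on every ESC-RPC array, and Cryba2 ranged from 32.6 to 36.3 in DKK1-treated ESC-RPCs. The summed intensity of the 10 genes was 297, 271 and 525 on the DKK1-treated arrays and 278, 338 and 764 on the untreated arrays. A large part of the excess came from Cryba1 alone. It gave 11.0, 23.5 and 174 of the DKK1-treated sums and 15.0, 50.6 and 285 of the untreated sums. Of 17 other lens structural genes on the array, 6 shared the pattern (Cryga, Crygb, Mip, Bfsp1, Tmod1 and Crym). Cryga, a gamma crystallin of lens fibers, measured 1.84, 3.99 and 34.8 in DKK1-treated ESC-RPCs and 2.84, 6.56 and 114 in untreated ESC-RPCs, against 55.5, 1.00 and 1.67 in primary RPCs. It thus stood highest on replicate 3 of both ESC-RPC groups and on replicate 1 of primary RPCs. It exceeded the line on 2 arrays, untreated replicate 3 and primary RPC replicate 1.

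The defining markers of lens fiber cells were at or near background. Mip, the lens water channel, measured 2.62, 15.6 and 32.4 in DKK1-treated ESC-RPCs and 10.2, 15.9 and 19.0 in untreated ESC-RPCs, against 15.5, 20.0 and 12.8 in primary RPCs, all under the line. Bfsp1, a beaded filament protein, measured 11.8, 32.4 and 40.9 in DKK1-treated ESC-RPCs and 12.2, 21.6 and 53.6 in untreated ESC-RPCs, against 30.1, 38.0 and 83.8 in primary RPCs. Its partner Bfsp2 measured 12.2, 1.76 and 25.8 in DKK1-treated ESC-RPCs and 35.6, 38.6 and 12.3 in untreated ESC-RPCs, against 53.7, 81.4 and 36.0 in primary RPCs. Bfsp1 exceeded the line on 1 untreated and 1 primary array, and Bfsp2 on 2 primary arrays.

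Of 22 listed lens structural genes outside the 10, 17 were on the array and 6 were tested. In untreated ESC-RPCs 3 of the 6 fell relative to primary RPCs and none rose, where 53.0% of all tested genes were called and 26.9% as lower. The list median log2 difference was -0.41, against -0.01 for all genes. Crym, mu crystallin, a crystallin of marsupial lenses that binds thyroid hormone in mammals, measured 809, 826 and 1352 in DKK1-treated ESC-RPCs and 511, 842 and 1057 in untreated ESC-RPCs, against 12761, 7332 and 11427 in primary RPCs. It fell in untreated ESC-RPCs (log2 difference -3.73 ± 0.29, adjusted p = 3.08e-06, limma). Cryl1, lambda crystallin, known from rabbit lens, fell as well (log2 difference -0.93 ± 0.22, adjusted p = 0.00455), as did Tdrd7, a Tudor domain gene needed in lens development (-0.49 ± 0.18, adjusted p = 0.0444). Cryz, zeta crystallin, a quinone reductase recruited to the guinea pig lens, did not pass (-0.33 ± 0.13, adjusted p = 0.059). In DKK1-treated ESC-RPCs the same 3 genes fell relative to primary RPCs, where 52.8% of all tested genes were called and 26.8% as lower. Only 1 gene was called when replicate 1 or 3 of DKK1-treated ESC-RPCs or replicate 3 of primary RPCs was left out. None was called between the ESC-RPC groups by limma on 9 arrays, and 0 of 6 had an unadjusted p under 0.05.

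Transcription factors of lens development went both ways. Of 16 listed, 13 were tested, and in untreated ESC-RPCs 4 rose and 4 fell relative to primary RPCs, where 53.0% of all tested genes were called. The list median log2 difference was -0.02, against -0.01 for all genes. Pax6, which activates several crystallin genes, fell (log2 difference -2.93 ± 0.14, adjusted p = 9.43e-08, limma), as did Six3 (-2.79 ± 0.31, adjusted p = 3.77e-05), Tfap2a (-2.33 ± 0.21, adjusted p = 9.10e-06) and Prox1 (-1.53 ± 0.13, adjusted p = 4.78e-06), which drives fiber elongation. Maf, a direct activator of crystallin promoters, rose: it measured 2712, 3585 and 3033 in DKK1-treated ESC-RPCs and 2610.4, 2665 and 2546 in untreated ESC-RPCs, against 964, 767 and 1259 in primary RPCs (1.42 ± 0.16, adjusted p = 4.38e-05 for untreated ESC-RPCs). Sox1, on which the ESC-RPCs were sorted at day 7, measured 3104, 2502 and 3052 in DKK1-treated ESC-RPCs and 2894, 2776 and 2822 in untreated ESC-RPCs, and lay under the line on all 3 primary RPC arrays. How far the sort set the Sox1 level on the arrays was not tested. The other 2 rises were those of Sox2 (log2 difference 0.30 ± 0.11, adjusted p = 0.0392) and Mafg (0.29 ± 0.09, adjusted p = 0.0223).

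Some lens regulators stayed near background in all groups. Foxe3, a factor of the lens epithelium, measured 3.98, 7.35 and 7.65 in DKK1-treated ESC-RPCs and 9.04, 7.86 and 5.52 in untreated ESC-RPCs, against 6.15, 6.67 and 6.26 in primary RPCs. Hsf4, a heat shock factor of the lens, measured 33.0, 29.5 and 46.4 in DKK1-treated ESC-RPCs and 34.9, 53.6 and 25.9 in untreated ESC-RPCs, against 23.8, 13.5 and 35.0 in primary RPCs, and neither gene was tested. Pitx3, a factor of lens and midbrain, exceeded the line on all 3 arrays of each ESC-RPC group and on 1 primary RPC array. It averaged 64.5 in DKK1-treated ESC-RPCs, 71.2 in untreated ESC-RPCs and 49.1 in primary RPCs. Pitx3 was tested and did not pass between untreated ESC-RPCs and primary RPCs (log2 difference 0.61 ± 0.34, adjusted p = 0.149, limma). In DKK1-treated ESC-RPCs 7 of the 13 factors were called relative to primary RPCs, 3 higher and 4 lower, where limma called 52.8% of all tested genes. Mafg was the one that missed (adjusted p = 0.0537, limma). Between the ESC-RPC groups 0 of 13 were called by limma on 9 arrays, with 0 at an unadjusted p under 0.05, and with the replicate block on 6 arrays 1 was (Six3, higher with DKK1, adjusted p = 0.00602).

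The small heat shock proteins, the wider family of the alpha crystallins, did not share one direction. Of 8 listed genes, 4 were tested and 3 called in untreated ESC-RPCs relative to primary RPCs, where 53.0% of all tested genes were called. The list median log2 difference was 0.76, against -0.01 for all genes. Hspb1, a stress-induced chaperone, rose (log2 difference 1.84 ± 0.13, adjusted p = 1.70e-06, limma) and so did Hspb8 (1.18 ± 0.30, adjusted p = 0.00705), while Hspb6 fell (-0.94 ± 0.13, adjusted p = 0.000162). In DKK1-treated ESC-RPCs relative to primary RPCs the counts were also 2 higher and 1 lower, where 52.8% of all tested genes were called. Between DKK1-treated and untreated ESC-RPCs limma called none of the 4.

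**Figure D4:**
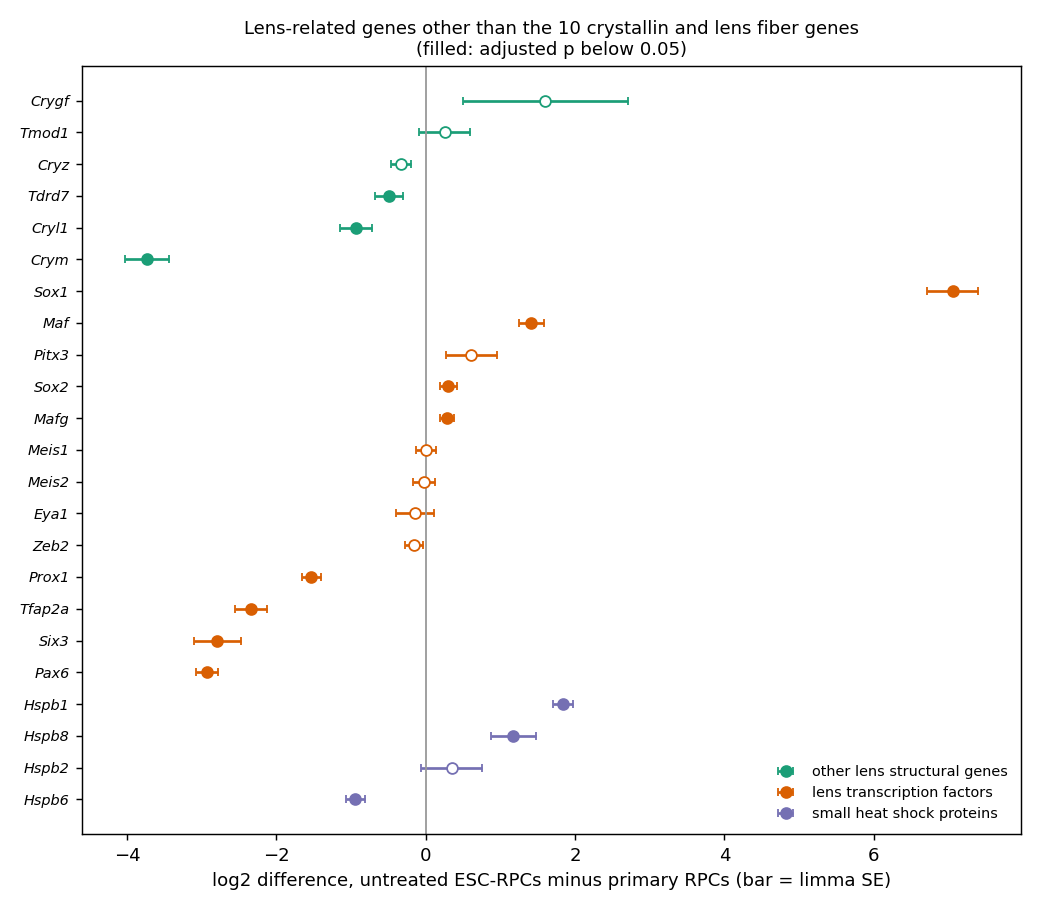
Log2 difference of untreated ESC-RPCs minus primary RPCs, with limma SE as bars, for tested lens structural genes, lens transcription factors and small heat shock proteins other than the 10 members; filled points passed at an adjusted p below the threshold. Crym, Pax6, Six3, Tfap2a and Prox1 lie to the left, Maf, Hspb1 and Sox1 to the right.

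Several markers of other cells differed between untreated ESC-RPCs and primary RPCs, and their part in the crystallin differences was not tested. In that comparison limma called 53.0% of all tested genes and 26.9% as lower. All 6 tested photoreceptor markers fell in untreated ESC-RPCs relative to primary RPCs, and the 8 on the array summed to 166 to 194 in DKK1-treated ESC-RPCs, 136 to 227 in untreated ESC-RPCs and 17314 to 29013 in primary RPCs. All 6 tested astrocyte markers rose, and the 7 on the array summed to 19980.0 to 23412 in DKK1-treated ESC-RPCs, 19819 to 23310.0 in untreated ESC-RPCs and 1731 to 2051 in primary RPCs. Of 4 tested pigment epithelium markers, 2 fell (Dct and Rlbp1), with sums over 10 genes of 458 to 586 in DKK1-treated ESC-RPCs, 529 to 609 in untreated ESC-RPCs and 696 to 924 in primary RPCs, and its defining gene Rpe65 lay under the line on all 9 arrays. Of 6 tested surface ectoderm and epithelial markers, 1 rose (Cdh1), with sums over 8 genes of 2972 to 4152 in DKK1-treated ESC-RPCs, 2864 to 3588 in untreated ESC-RPCs and 1478 to 2197 in primary RPCs.

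Muscle also expresses Cryab, and the part of muscle markers in its differences was not tested. Of 8 tested muscle markers, 3 fell and 2 rose in untreated ESC-RPCs relative to primary RPCs, where limma called 53.0% of all tested genes. Sums over 10 genes were 1048 to 1209 in DKK1-treated ESC-RPCs, 1109 to 1318 in untreated ESC-RPCs and 1434 to 9220.3 in primary RPCs. The upper end came from Actc1, cardiac actin, which measured 1396, 7946 and 609.6 on the 3 primary arrays.

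The genes with the most similar profile over the 9 arrays were looked up for the 3 members with the highest mean log2 intensity. Likeness was measured as the root mean square difference of centred log2 values, in log2 units, and no role is inferred from it. For Cryab the nearest were Sncb, beta synuclein (0.19), Rmdn2 (0.19) and Tox (0.22). Sncb averaged 148 ± 32.9 in DKK1-treated ESC-RPCs, 123 ± 28.6 in untreated ESC-RPCs and 374 ± 52.5 in primary RPCs (SD, n = 3 each). For Crybb3 they were Rasa4 (0.43), Slc24a2 (0.43) and Cpq (0.49). For Cryba1 they were Cplx4, a complexin of retinal ribbon synapses (0.93), Adamtsl2 (0.95) and Cnnm4 (0.99).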

How the data were processed

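The deposited values are intensities per probe set, which the authors computed with MAS5 per the submitters' processing notes; version, settings and genome build are not given in the sources used here. In every column the mean after trimming 2% at either end was 500.0. Of 45101 probe sets, 64 were controls, 932 listed several genes, 9160 none and 34945 exactly 1. Log2 was taken without further scaling. Where several probe sets of a gene passed the filter, the one brightest on average (log2) stood for it, as did the brightest set of an untested member.

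Using limma 3.58.1 under R 4.3.3, group means were modelled over the 9 arrays together (intensity trend, two-sided moderated tests, Benjamini-Hochberg adjustment over 13320 genes, calls at adjusted p below 0.05). The script was tested on simulated data. Precision is limited by 3 arrays per group. Replicates are biological per the labels, which name no separate cultures or animals. The p-values rest on the spread of these samples within groups, pooled over the 3 groups and moderated across genes. The fit of 9 arrays did not use the pairing by replicate number.

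The members, lists, motifs and tests were chosen with earlier results of these data known. Outside the members, genes were named by rule: up to 4 per list with the smallest adjusted p in untreated ESC-RPCs minus primary RPCs, and 12 lens genes in every case. Rax, Hes1, Fgf15, Rpe65, Cryga, Crygb, Tmod1, Sox2 and Mafg were named after their values were seen. The genes most like a member are those with the smallest root mean square difference over the 9 arrays.

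Deviations from the group means correlated across genes at 0.123, 0.195 and 0.318 for same-numbered DKK1-treated and untreated arrays, and at -0.234 to 0.0681 for different numbers. The ESC-RPC numbers were therefore taken as pairs; this comes from the values, not the labels. Alternatives were no filter, averaged probe sets, quantile or median scaling, a floor, no trend, 2 groups only, replicate blocks and leaving out each array.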

Additional observations from a re-analysis of the deposited data

How the results depend on the processing

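Calls were recounted for the 10 members and for 3 further lists (other lens structural genes, lens transcription factors, small heat shock proteins) in the 3 comparisons under each alternative. Of 208 recounts, 204 stayed within 1.5 times the reported count. The other 4 were the lens transcription factors between DKK1-treated and untreated ESC-RPCs, where the replicate block on 6 arrays gave 1 call in place of 0, and the other lens structural genes between DKK1-treated ESC-RPCs and primary RPCs. The last count, 3 in the main setting, was 1 when replicate 1 or 3 of DKK1-treated ESC-RPCs or replicate 3 of primary RPCs was left out, and leaving out single arrays gave 1 to 3. The replicate block changed no other count of these lists by over 1.5 times. Members called numbered 4 to 5 in untreated and 5 to 7 in DKK1-treated ESC-RPCs against primary RPCs when single arrays were left out. The floor gave 5 and 6, and 0 between the ESC-RPC groups. In the main setting limma called 53.0% and 52.8% of all tested genes in the 2 comparisons with primary RPCs. Shares over all genes under the other settings are not given here, and nothing is read from the member counts. Of 390 recomputed log2 differences of members, 15 moved by 1 SD or more and 13 took the other sign, none of them called in the reported fit. Of these 13, 7 concerned DKK1-treated minus untreated ESC-RPCs. Many of the 390 could not change, so these counts do not measure stability. Leaving out an array of the group not compared returns the reported value, as does averaging for a gene with 1 probe set. Signal over background is the limit for most members: 0.01 in place of -3.10 was the difference of Cryba4 between DKK1-treated and untreated ESC-RPCs with the floor, which sets all values below the 40th percentile to it.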
